A study of Mus musculus with 2 samples.

Results

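The axoneme is the microtubule core of a motile cilium, and 57 of the 32285 genes in the files had a symbol that starts with Dnah, Cfap or Rsph followed by a number. These were 16 Dnah, 33 Cfap and 8 Rsph genes. A 4th prefix in the rule, Dnai, matched 0 symbols, and dynein intermediate chains such as Dnaic1 were described in a list of their own. The rule used the symbol alone and no measured value. It also took in Dnah2os, an RNA transcribed opposite to Dnah2, which encodes no axonemal protein.

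Whole spinal cords of FVB mice at postnatal day 4 were profiled by droplet single-cell RNA-seq, with 1 library labelled SMA and 1 labelled Con. Mice of the SMA library had the genotype mSmn-/-, hSMN22tg/0, the severe form of the Taiwanese model of spinal muscular atrophy, in which mouse Smn is disrupted. Con mice were heterozygous littermates with 1 intact mouse Smn allele. Both groups carried the human SMN2 transgene, so the controls were not wild type. Each library came from pooled animals, so there was no replicate and no test between groups, and every interval below is a 95% interval that covers counting error only.

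Motile cilia beat by dynein arms that slide neighbouring doublet microtubules past each other. Radial spokes and a central pair of microtubules control when the arms work, and proteins inside the doublets keep them stable. In the spinal cord such cilia are known on ependymal cells, which line the central canal and move cerebrospinal fluid. Most Dnah genes encode the heavy chains of the dynein arms, Rsph genes encode parts of the radial spokes, and Cfap genes encode proteins found throughout the axoneme.

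A total of 8163 cell barcodes were listed in both libraries, and the SMA copies of these were left out. After filtering on genes and mitochondrial share, 6787 cells labelled SMA (median 6109 unique molecular identifiers, UMIs, each tagging 1 captured RNA molecule) and 8918 labelled Con (median 6229 UMIs) remained. Of the kept Con cells 6557 had a barcode that was also listed in the SMA library, among them 254 of the 287 ependymal-like cells. In all 254 of these the Con copy was the deeper, with a median of 6480 UMIs against 1143 in the SMA copy. Smn1 was found at 48.1 CPM (46.2 to 50.2) in the kept cells of the library labelled SMA and at 43.8 CPM (42.2 to 45.5) in the library labelled Con. Smn1 was thus higher in the library labelled SMA over all kept cells, against the direction of the label. In ependymal-like cells it had 56.8 CPM (49.7 to 64.7) in SMA and 66.8 CPM (55.6 to 79.5) in Con, with intervals that overlap. Since the files give no position of a read within a gene, whether these counts came from the disrupted part cannot be told.

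Ependymal-like cells were found by clustering without the Dnah, Cfap and Rsph genes and without the lists of other cilia genes described below. They were named from 14 markers such as Foxj1, the regulator of motile cilia. These markers were not left out of the clustering. There were 623 ependymal-like cells in the library labelled SMA (9.18% of kept cells) and 287 in the library labelled Con (3.22%). With the markers left out too, there were 619 and 287. They fell into a cluster led by Crygn, in which all 14 markers were detected, and a cluster led by Pdyn, in which 11 were. Foxj1 had 299.5 CPM (a gene's UMIs divided by all UMIs of the same cells, times 1000000) in the ependymal-like cells of the library labelled SMA and 318.5 CPM in Con, against 3.89 and 1.71 CPM in the other named cells.

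Promoters, here the 250 bases before and 50 bases after a gene's start, were looked up in RefSeq (GRCm38.p6) for all members, and 45 of the 57 had an entry, with 49 promoters in total. They were searched on both strands for GTTGCC, part of the site that RFX factors, regulators of ciliary genes, are known to bind, and for the inverted repeat of that site (the same motif with any base at its 4th position and, 2 bases on, its reverse complement), which can contain the shorter motif. The shorter motif was found in 16 of the 49 members' promoters (32.7%) and in 12.5% of all 32851 promoters. The 16 belonged to 15 genes, among them Dnah7a, Dnah7b and Dnah7c, which are close copies of each other. Base composition was not matched between the sets, and the difference was not tested. The inverted repeat was found in 1 member promoter (2.04%) and in 0.451% of all promoters. The promoters of Cfap126, Cfap298 and Cfap20 are shown because these members had the most UMIs in ependymal-like cells among those with an entry. They read 5′ to 3′ on the strand of the gene, with matches to either motif, on either strand, in capitals.
Cfap126, chr1:171113736-171114035, plus strand: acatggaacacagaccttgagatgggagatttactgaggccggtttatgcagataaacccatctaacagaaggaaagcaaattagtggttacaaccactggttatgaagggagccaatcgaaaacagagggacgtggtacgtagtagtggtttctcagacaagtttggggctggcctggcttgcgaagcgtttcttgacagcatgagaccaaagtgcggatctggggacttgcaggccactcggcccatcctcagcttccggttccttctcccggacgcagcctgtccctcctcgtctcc
Cfap298, chr16:90934800-90935099, minus strand: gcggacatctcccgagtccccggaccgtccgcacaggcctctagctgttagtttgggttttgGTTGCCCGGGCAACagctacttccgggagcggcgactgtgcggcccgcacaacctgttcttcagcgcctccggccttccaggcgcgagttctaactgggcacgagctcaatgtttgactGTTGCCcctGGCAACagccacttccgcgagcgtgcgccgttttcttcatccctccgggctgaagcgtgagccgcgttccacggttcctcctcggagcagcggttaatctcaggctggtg
Cfap20, chr8:95434820-95435119, minus strand: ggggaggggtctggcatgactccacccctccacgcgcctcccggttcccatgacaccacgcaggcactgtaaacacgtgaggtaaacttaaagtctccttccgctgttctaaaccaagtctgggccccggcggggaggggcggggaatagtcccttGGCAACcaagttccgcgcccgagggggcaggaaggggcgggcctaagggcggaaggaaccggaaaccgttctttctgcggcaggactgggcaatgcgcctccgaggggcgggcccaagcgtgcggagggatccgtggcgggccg
Cfap298, a factor of dynein assembly, had 4 matches to the shorter motif, a pair of which formed the inverted repeat that begins 188 bases before the start. Cfap20, a protein of the inner junction of the doublet, had 1 match on the opposite strand. Cfap126 had 0 matches in this promoter, and also 0 in the other promoters listed for it.

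The members together made up 5249 CPM (5179 to 5321) of ependymal-like cells in the library labelled SMA and 5584 CPM (5478 to 5692) in the library labelled Con. In the other named cells they made up 359.5 CPM (353.7 to 365.4) and 286.4 CPM (282.0 to 290.8). The log2 ratio of ependymal-like over other cells was 3.87 (3.84 to 3.90) and 4.29 (4.25 to 4.32). Ependymal-like cells thus held 58.5% of the members' UMIs of all kept cells in SMA and 38.9% in Con, although they were a small part of the cells. With the ependymal markers kept out of the clustering too, the log2 ratios were 3.87 and 4.28. With the shared barcodes left out of both libraries and the cells clustered again, 605 and 30 ependymal-like cells remained and the log2 ratios were 3.89 and 4.41.

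Of the 57 members, 52 had at least 1 UMI in ependymal-like cells and 46 had at least 50 there over both libraries. With at least 50 UMIs over ependymal-like and other named cells as the requirement, 42 of 44 members were 2-fold or more higher in ependymal-like cells of the library labelled SMA, beside 14.9% of all genes tested. In the library labelled Con it was 41 of 43, beside 16.3% of all genes. At 10-fold or more the counts were 38 of 44 (3.66% of all genes) and 37 of 43 (3.27%). The median log2 ratio of the members evaluated was 6.29 in SMA and 6.93 in Con, and that of all genes was -0.18 and -0.01. Most members met the requirement through their UMIs in ependymal-like cells, so these counts describe the members and support nothing further.

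**Figure D1:**
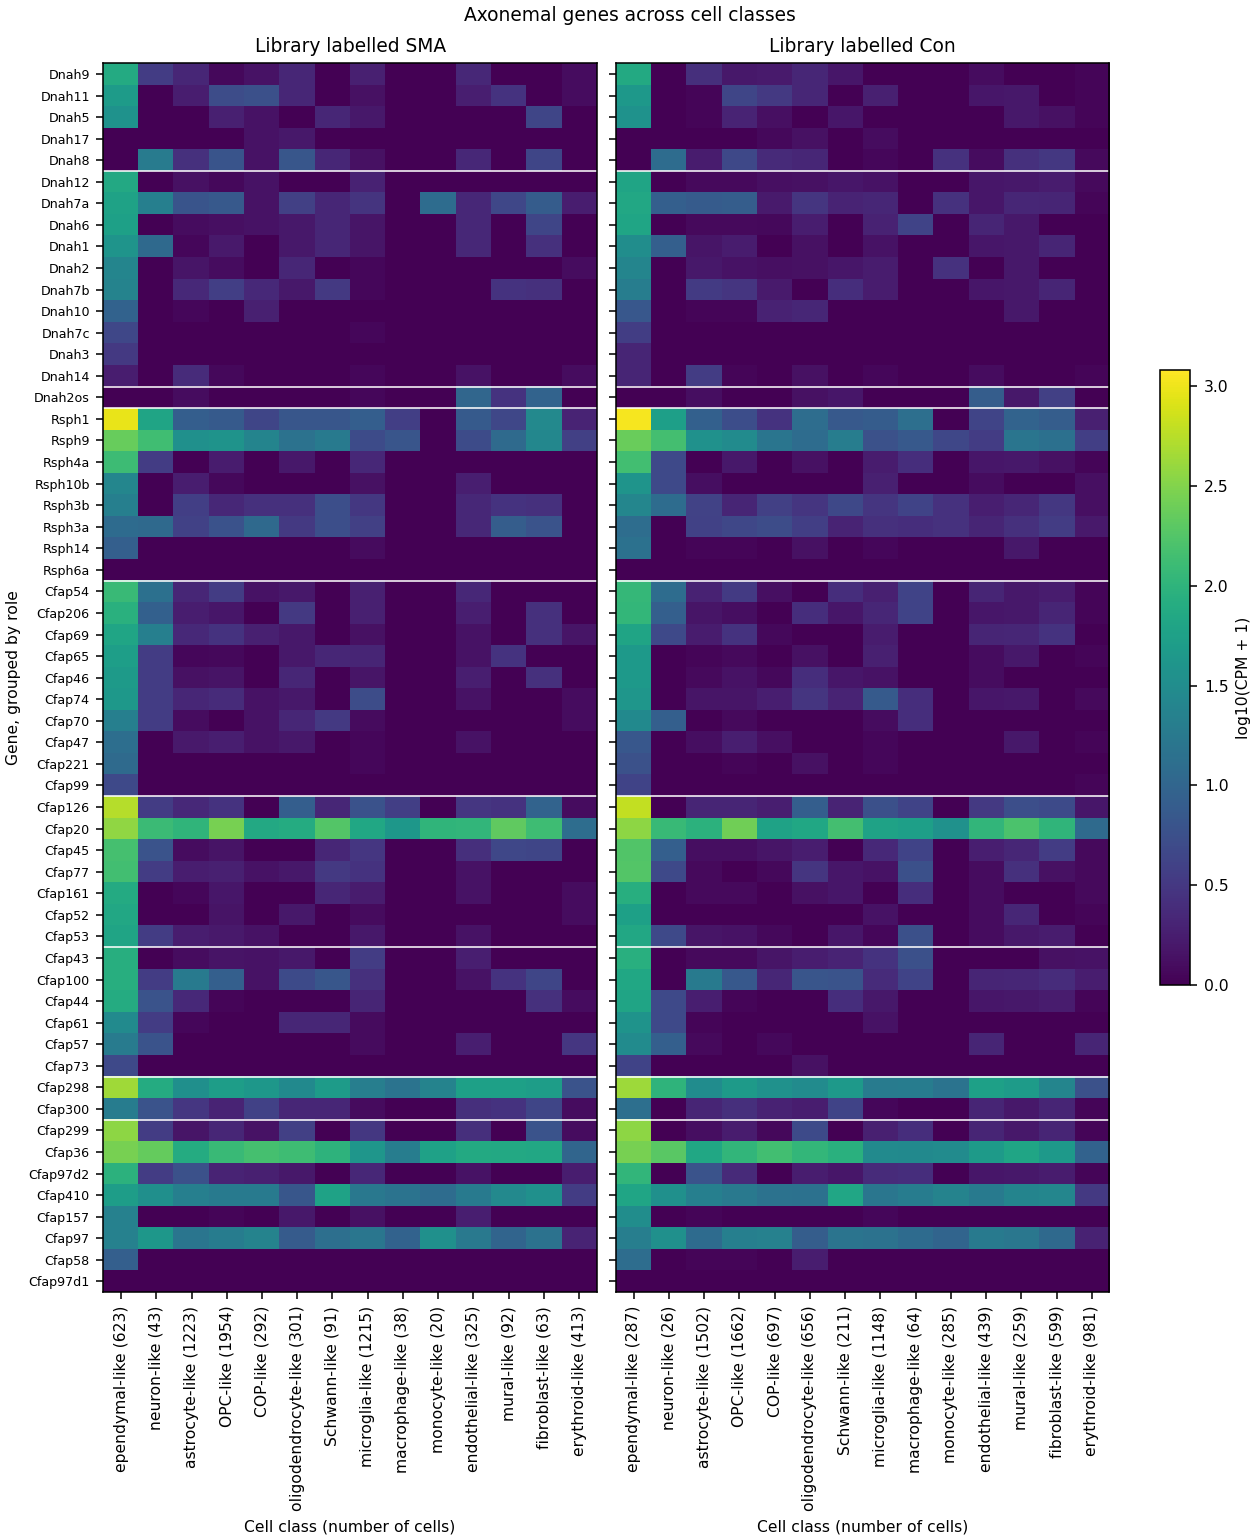
Colour gives log10(CPM + 1) of each of the 57 genes (rows, grouped by role) in each cell class (columns, with the number of cells), for the library labelled SMA and the library labelled Con. The ependymal-like column is the brightest for most rows, while Cfap20, Cfap36, Cfap298, Cfap410, Cfap97 and Rsph9 are lit across classes.

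Among the radial spoke genes, Rsph1, a protein of the spoke head, gave 18.5% of all the members' UMIs in ependymal-like cells. It lies on chromosome 17 from 31255019 to 31277383 (GENCODE M21, GRCm38). Rsph1 had 947.5 CPM (918 to 978) in SMA and 1090 CPM (1043 to 1138) in Con, and a UMI in 95.7% and 95.5% of ependymal-like cells. In the other named cells it had 6.79 and 5.30 CPM, so the log2 ratios were 7.12 (6.95 to 7.30) and 7.68 (7.51 to 7.86). The intervals of the levels in ependymal-like and other cells were far apart in both libraries. Rsph4a, also of the spoke head (chromosome 10, 33905111 to 33916021), had 129 and 139 CPM against 0.489 and 0.335 CPM elsewhere. Rsph9, a spoke head protein too, was less restricted, with 229 and 233 CPM against 22.3 and 17.2 CPM, and log2 ratios of 3.36 and 3.76. Rsph3a and Rsph3b, parts of the spoke stalk, are near-identical copies whose UMIs the counting could have split, and their log2 ratios were between 1.58 and 3.77. Rsph6a, known from sperm, had 0 UMIs in the kept cells. The 8 genes summed gave 1369 CPM in SMA and 1550 CPM in Con, against 35.2 and 27.3 CPM in other cells.

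Of the 5 heavy chains of outer arms, Dnah5, Dnah9 and Dnah11 were found in ependymal-like cells and Dnah8 and Dnah17 were not. Dnah9 (chromosome 11, 65831282 to 66168551) had 74.5 CPM (66.3 to 83.4) in SMA and 74.2 CPM (62.4 to 87.6) in Con. Dnah5 had 36.0 and 36.6 CPM and Dnah11 had 47.6 and 42.4 CPM. All 3 were 2-fold or more higher than in other cells in both libraries, with log2 ratios from 4.72 to 7.04. Dnah8 and Dnah17, the outer arm heavy chains known from sperm, had 0 UMIs in ependymal-like cells, and a count of 0 in 4029430 and 1886761 UMIs allows up to 3 counts in each library. Dnah8 nevertheless had 100 UMIs in other named cells of SMA and 72 in Con. Of these, 60 and 37 were in cells like oligodendrocyte precursors (OPC-like), or 5.26 and 3.70 CPM. In the library labelled SMA the Dnah8 level was at least 3.28-fold lower in ependymal-like than in other cells, and in Con the depth did not allow a bound above 1.

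All 10 heavy chains placed with the inner arms had UMIs in ependymal-like cells, of which Dnah12, Dnah7a, Dnah6, Dnah1, Dnah2 and Dnah7b had at least 50. Dnah12 (chromosome 14, 26693274 to 26891703) had 71.5 CPM in SMA and 62.5 CPM in Con, against 0.342 and 0.317 CPM elsewhere. Dnah6 had 54.6 and 63.6 CPM, against 0.440 and 0.370 CPM. Dnah7a, Dnah7b and Dnah7c are close copies of each other on chromosome 1, so the split of their UMIs is uncertain. Dnah7a had 57.8 and 70.0 CPM in ependymal-like cells but also 156 and 168 UMIs elsewhere, mostly in OPC-like (71 and 72 UMIs) and astrocyte-like cells. Dnah3 had 9 and 2 UMIs, all in ependymal-like cells. Dnah14 stood apart with 3 and 2 UMIs in ependymal-like cells and 11 and 25 in astrocyte-like cells, or 1.41 and 2.49 CPM in the latter.

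Among Cfap genes of the doublet microtubules, Cfap126 (chromosome 1, 171113918 to 171126967) had 541 CPM (518 to 564) in SMA and 632 CPM (597 to 669) in Con. In other cells it had 2.47 and 2.02 CPM, which gives log2 ratios of 7.78 (7.49 to 8.08) and 8.29 (8.01 to 8.58). Cfap45, Cfap77, Cfap161, Cfap52 and Cfap53 lie inside or on the doublet. Of these, Cfap45 had 146 and 173 CPM, Cfap77 had 138 and 180 CPM, and Cfap161 had 75.2 and 84.3 CPM, each below 1 CPM in the other cells of both libraries. Cfap20, which is known to serve cilia in many cell types, was higher in ependymal-like cells too but was less restricted to them. It had 367 and 357 CPM in ependymal-like cells and 137 and 104 CPM in the others, where OPC-like cells led with 283 and 260 CPM. Only 20.8% and 10.2% of the Cfap20 UMIs of named cells were in ependymal-like cells.

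Central apparatus genes had the highest log2 ratios of the roles by their sum, 6.17 (5.98 to 6.36) in SMA and 6.62 (6.42 to 6.83) in Con. They had 462 and 455 CPM in ependymal-like cells and 6.43 and 4.61 CPM in other cells. This ranking depends on Cfap20, with which the doublet genes summed to 3.29 and 3.85. The doublet genes other than Cfap20 each had a higher ratio than the central apparatus sum. These ran from 6.91 (Cfap53) to 8.30 (Cfap52) in SMA and from 7.63 (Cfap53) to 8.90 (Cfap161) in Con. Of the central apparatus genes, Cfap54 had 120 and 112 CPM in ependymal-like cells. Cfap206, which was counted with this group, is better known as an adapter that docks a radial spoke and an inner dynein to the doublet, and had 89.8 and 109 CPM. Without Cfap206 the other 9 genes had log2 ratios of 6.02 (5.82 to 6.23) and 6.42 (6.20 to 6.64). Cfap99 had 15 UMIs in SMA and 6 in Con in ependymal-like cells, beside 0 and 1 elsewhere. Cfap74 had 35 and 46 UMIs in microglia-like cells, or 4.20 and 6.44 CPM, beside 43.4 and 40.3 CPM in ependymal-like cells.

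The genes of the inner dynein tether, of the calmodulin and spoke complex and of modifiers of inner arms included Cfap43, Cfap44, Cfap57, Cfap61, Cfap73 and Cfap100. Cfap43 (chromosome 19, 47736857 to 47919287), a tether protein, had 85.1 and 85.9 CPM against 0.782 and 0.563 CPM elsewhere; its exons overlap those of Itprip on the same strand. Cfap44, its partner, had 76.7 and 62.0 CPM. Cfap100, a modifier of inner arms, had 83.1 and 67.3 CPM, but 17.3 and 17.7 CPM in astrocyte-like cells as well (135 and 177 UMIs). Its log2 ratios of 3.74 and 3.69 were accordingly lower than those of Cfap43, at 6.77 and 7.25.

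For dynein assembly, Cfap298 (chromosome 16, 90925809 to 90935114) had 431 CPM (411 to 452) in SMA and 429 CPM (400 to 459) in Con, against 35.3 and 30.3 CPM in other cells. Cfap300, the other assembly factor, had 18.9 and 12.2 CPM against 1.22 and 0.898 CPM. Among the remaining Cfap genes, Cfap299 had 356 and 357 CPM and log2 ratios of 8.19 (7.78 to 8.62) and 9.10 (8.62 to 9.62). Cfap36, which binds a small GTPase of ciliary traffic, had 280 and 279 CPM against 82.3 and 66.6 CPM. Cfap97d2 had 94.1 and 104 CPM, and its relative Cfap97d1 had 0 UMIs in the kept cells. Cfap97 was the member with the most UMIs that stayed under 2-fold in both libraries, with 21.8 and 19.6 CPM in ependymal-like cells and 14.9 and 12.9 CPM in others. Its log2 ratios were 0.55 (0.21 to 0.88) and 0.60 (0.08 to 1.08).

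The other members under 2-fold in both libraries were Dnah8, Dnah17 and Dnah2os, each with 0 UMIs in ependymal-like cells. Dnah2os had 32 and 40 UMIs in other named cells, of which 23 and 26 were in endothelial-like cells and 5 and 8 in fibroblast-like cells, while Dnah2, on the opposite strand, had 98 and 46 UMIs in ependymal-like cells. Dnah17 had 2 and 4 UMIs elsewhere. Ependymal-like cells therefore showed reads of Dnah2 without any of Dnah2os at this depth.

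Cfap20, Cfap36, Cfap298, Rsph9, Cfap410 and Cfap97 were the 6 members at 10 CPM or more in the other named cells of both libraries, a limit chosen after the values were seen. They are called broad below. Together they had 1380 and 1382 CPM in ependymal-like cells and 309 and 248 CPM in others. Without them the members summed to 3870 and 4202 CPM in ependymal-like cells against 50.4 and 38.5 CPM, with log2 ratios of 6.26 (6.20 to 6.33) in SMA and 6.77 (6.70 to 6.84) in Con. Most member UMIs outside ependymal-like cells thus came from 6 genes. Cfap410 was as high in Schwann-like cells (59.1 and 66.3 CPM) as in ependymal-like cells (51.1 and 64.1 CPM).

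Of the other classes, the neuron-like cells had the highest summed level, 851 CPM (762 to 948) in 43 cells of SMA and 781 CPM (678 to 896) in 26 cells of Con, both groups under 50 cells. This cluster was led by Snhg11 and Pkd2l1, the latter a channel of neurons that contact the cerebrospinal fluid. Rsph9 in these cells had 134 and 144 CPM, Cfap36 had 224 and 193 CPM, and Rsph1 had 61.7 and 53.1 CPM. Rsph9 was thus between its ependymal-like level and that of all other classes. The lowest sums among classes of at least 50 cells in each library were in erythroid-like cells, with 40.2 CPM (34.2 to 47.0) and 37.5 CPM (33.7 to 41.6). These cells should lack axonemes. Of their 158 and 351 member UMIs, 126 and 277 came from the 6 broad members, and free RNA was not measured.

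To compare cells at a common depth, each was thinned to 2000 UMIs, which left out 7 ependymal-like cells of SMA and 4 of Con, and 185 and 945 of the other named cells. A UMI of at least 1 member was then found in 612 of 616 ependymal-like cells of SMA (99.4%, exact Clopper-Pearson interval 98.3 to 99.8) and in 282 of 283 of Con (99.6%, 98.0 to 99.99). Without thinning the shares were 100% and 99.7%. In the other named cells it was 49.3% and 42.3%, and in erythroid-like cells, with median depths of 9696 and 9834 UMIs before thinning against 5983 and 6238 in ependymal-like cells, 7.86% and 5.94%. Without the 6 broad members the share was 98.1% and 98.9% in ependymal-like cells, 8.79% and 7.15% in the others, and 2.95% and 1.49% in erythroid-like cells. The median ependymal-like cell held 10 member UMIs in SMA and 11 in Con, with 5th to 95th percentiles of 3 to 19 and 4 to 20.

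**Figure D2:**
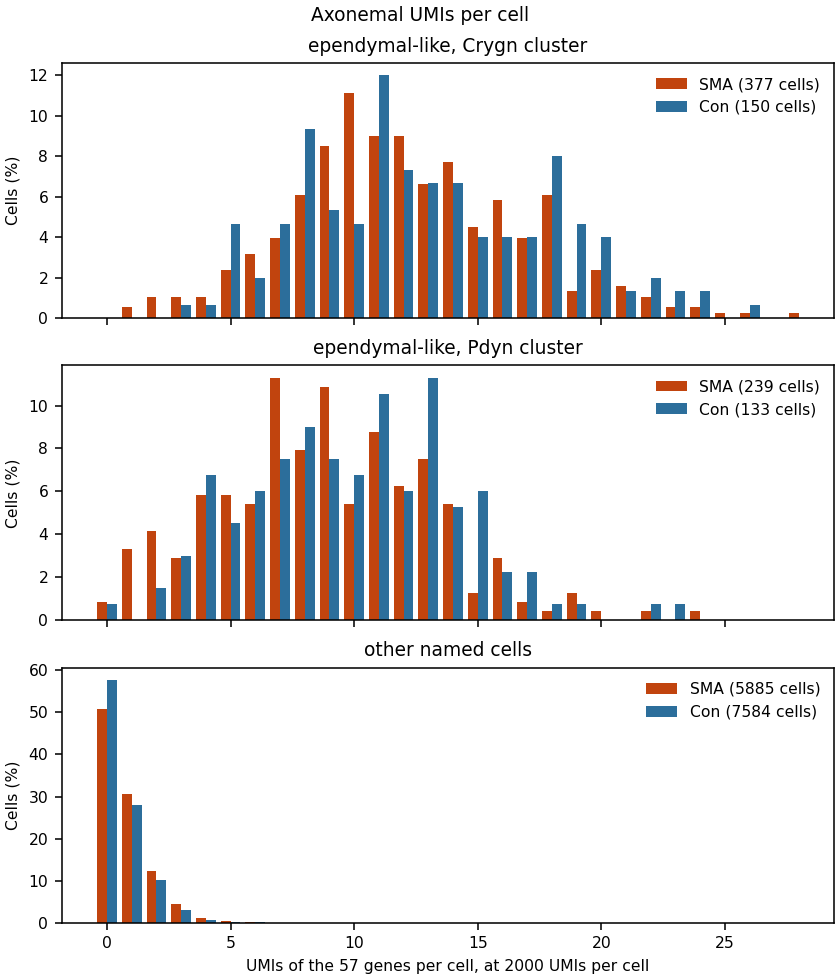
Bars give the percentage of cells (vertical axis) with each number of UMIs of the 57 genes (horizontal axis) at 2000 UMIs per cell, for the Crygn cluster, the Pdyn cluster and all other named cells of the libraries labelled SMA and Con. Medians were 12 and 12 in the Crygn cluster, 9 and 10 in the Pdyn cluster and 0 and 0 in other cells.

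Both ependymal-like clusters carried the members, at different levels. In the Crygn cluster (382 cells of SMA and 152 of Con) the members summed to 5834 CPM in SMA and 6138 CPM in Con. In the Pdyn cluster (241 and 135 cells) they summed to 4303 and 4925 CPM. The log2 ratio of the Pdyn over the Crygn cluster was -0.44 (-0.48 to -0.40) in SMA and -0.32 (-0.37 to -0.26) in Con. Members with at least 50 UMIs in these cells were lower in the Pdyn cluster in 36 of 41 cases in SMA and 30 of 36 in Con, with medians of -0.60 and -0.44, and the medians of all genes were -0.00 and 0.03. In SMA 5 of 41 were 2-fold or more lower, beside 9.11% of all genes, and in Con 5 of 36, beside 6.68%, and in each library 1 member was 2-fold or more higher, beside 5.60% and 5.64%. None was 10-fold or more higher (0 of 41, beside 0.540% of all genes in SMA, and 0 of 36, beside 0.386% in Con). The clusters were made from other genes of the same cells, so these ratios are a description. Of the 14 ependymal markers, which were not left out of the clustering, 13 had a lower level in the Pdyn cluster in each library. Ccdc153 had 177 and 166 CPM in the Crygn cluster and 12.99 and 13.93 CPM in the Pdyn cluster, and Foxj1 had 383.5 and 403 CPM against 164 and 218 CPM. Fam183b was nearly level, at 1489 and 1381 CPM against 1380 and 1281 CPM, and Tppp3 was the exception, at 272 and 292 CPM against 314 and 400.4 CPM.

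Dnah5 had the lowest ratio of the Pdyn over the Crygn cluster in both libraries among these members, falling from 51.8 to 10.4 CPM in SMA and from 57.6 to 11.6 CPM in Con. Its log2 ratios were -2.32 (-3.17 to -1.56) and -2.31 (-3.44 to -1.33). Dnah11, which pairs with Dnah5 in outer arms, had -1.01 (-1.53 to -0.52) and -1.87 (-2.78 to -1.04), while Dnah9 had -0.74 (-1.13 to -0.37) and -0.46 (-0.99 to 0.04). Rsph4a had -1.13 (-1.44 to -0.83) and -1.09 (-1.50 to -0.70). On the other side, Cfap97d2 was higher in the Pdyn cluster, at 139 against 66.3 CPM in SMA and 133 against 80.0 CPM in Con, with log2 ratios of 1.07 (0.77 to 1.37) and 0.74 (0.32 to 1.17). Dnah7a, with the doubt about its copies, had 0.78 (0.40 to 1.16) and 1.06 (0.53 to 1.60). Cfap126 was level between the clusters, with -0.06 (-0.19 to 0.07) and -0.04 (-0.21 to 0.12). The members therefore did not move between the clusters as 1 block in either library.

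**Figure D3:**
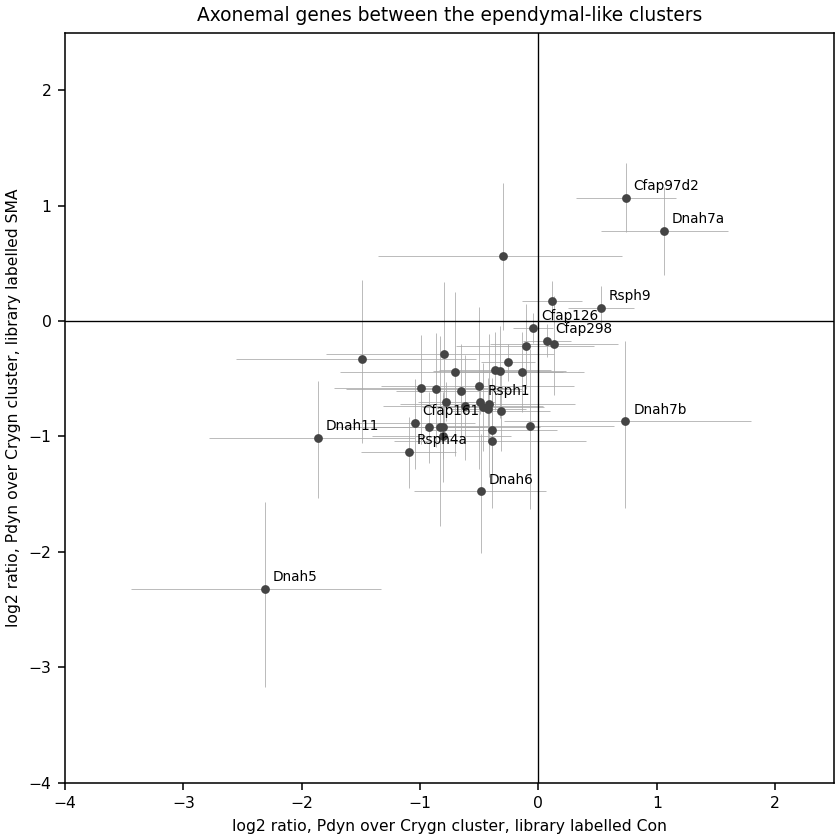
Each point is a gene with at least 100 UMIs in ependymal-like cells. Its log2 ratio of CPM in the Pdyn over the Crygn cluster in the library labelled Con is on the horizontal axis and that in the library labelled SMA on the vertical axis, with 95% counting intervals. Dnah5 lies at -2.31 and -2.32, Cfap97d2 and Dnah7a lie above 0 on both axes, and most points lie below 0 on both.

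Between the libraries, the members' summed level in ependymal-like cells was 5249 CPM in SMA and 5584 CPM in Con, a log2 ratio of -0.09 (-0.12 to -0.06). It was -0.07 (-0.12 to -0.03) within the Crygn cluster and -0.19 (-0.25 to -0.14) within the Pdyn cluster. With an upper limit of 6000 in place of 4000 genes per cell it was -0.015 (-0.05 to 0.02), and with the shared barcodes left out of both libraries, which kept 30 ependymal-like cells of Con, it was -0.14 (-0.26 to -0.02). The median over the 46 members with at least 50 UMIs was -0.02, and that over all genes with as many was -0.05. The difference was thus small, and 1 library per group cannot set it against the spread between animals.

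Of these 46 members 2 were 2-fold or more higher in SMA, beside 0.577% of all genes, and 0 were 2-fold or more lower, beside 0.359%. Counting intervals lay above 0 for 3 members (6.39% of all genes) and below 0 for 9 (10.7% of all genes). The 3 were Cfap221, Cfap47 and Cfap100, and the 9 were Rsph1, Cfap126, Cfap45, Cfap77, Cfap206, Cfap157, Cfap57, Rsph10b and Rsph14. A larger share of the members than of all genes thus had an interval below 0, and for intervals above 0 the shares were alike. The width of an interval depends on a gene's UMIs, and the members were not matched to all genes by UMIs. The median over all genes was itself below 0, at -0.05, so these shares are a description only.

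The 5 highest ratios belonged to Cfap221, Cfap47, Cfap300, Cfap52 and Dnah1. Cfap221, of the central apparatus, had 43 UMIs (10.7 CPM) in SMA and 9 UMIs (4.77 CPM) in Con, with a log2 ratio of 1.16 (0.11 to 2.38). For Cfap221 it was 0.47 (-0.33 to 1.34) with a mitochondrial limit of 20% and 0.11 (-2.44 to 5.45) with the shared barcodes left out of both libraries. Cfap47, of the same structure and on the X chromosome, had 48 and 11 UMIs (11.9 and 5.83 CPM) and a log2 ratio of 1.03 (0.07 to 2.13), which for Cfap47 was 0.92 (-0.04 to 2.01) with the shared SMA barcodes kept. Both thus rested on few UMIs in Con. Cfap300 had 0.63 (-0.06 to 1.37), Cfap52 had 0.32 (-0.01 to 0.65) and Dnah1 had 0.31 (-0.13 to 0.77).

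The 5 lowest ratios belonged to Rsph14, Cfap57, Cfap58, Rsph10b and Cfap157. Rsph14, of the radial spokes, had 30 UMIs (7.45 CPM) in SMA and 25 UMIs (13.3 CPM) in Con, with a log2 ratio of -0.83 (-1.65 to -0.01). Cfap57 had 73 and 56 UMIs (18.1 and 29.7 CPM) and a log2 ratio of -0.71 (-1.23 to -0.18). Rsph10b, whose exons overlap those of Pms2 on the same strand, had 101 and 72 UMIs and -0.61 (-1.06 to -0.15). Cfap58 had -0.65 (-1.49 to 0.22) and Cfap157 had -0.52 (-1.01 to -0.02). For Cfap157 it was -0.49 (-0.97 to 0.0016) with the shared SMA barcodes kept, an interval that includes 0. Intervals were narrower for the members with more UMIs, where Rsph1 had -0.20 (-0.28 to -0.12), Cfap126 had -0.23 (-0.33 to -0.12), Cfap77 had -0.38 (-0.58 to -0.18) and Cfap298 had 0.01 (-0.11 to 0.13).

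**Figure D4:**
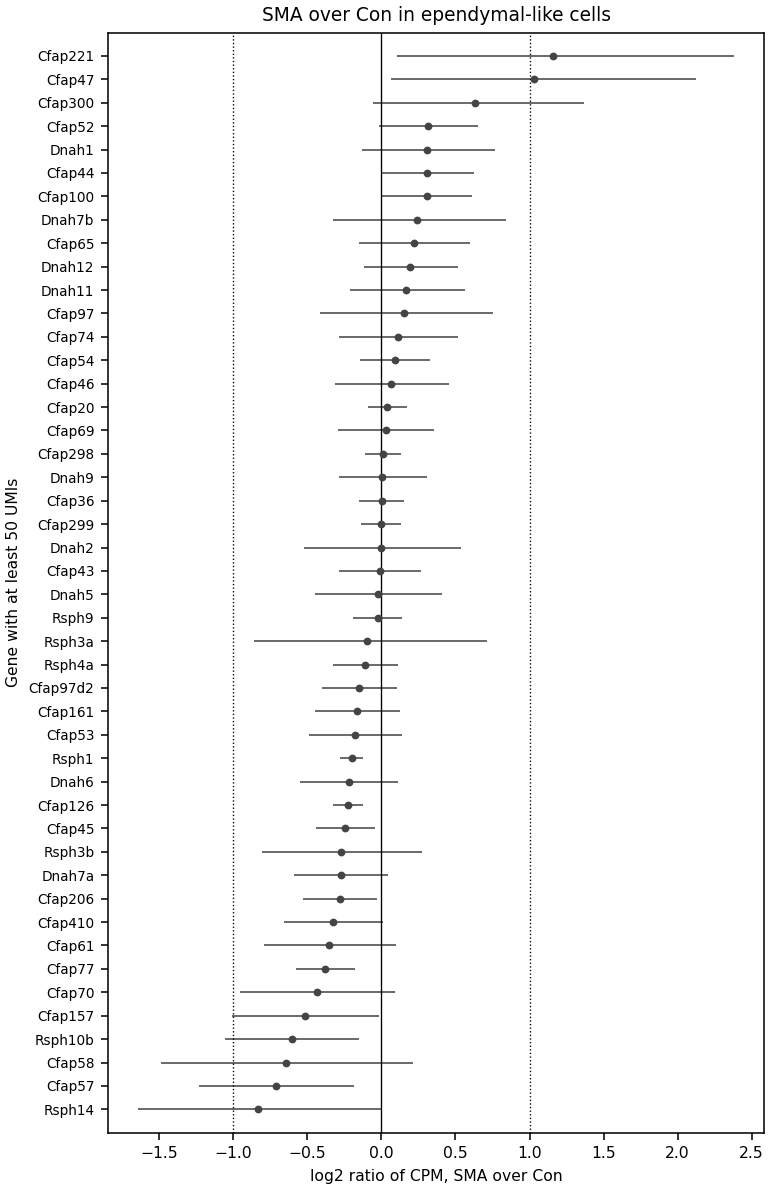
Points give the log2 ratio of CPM in ependymal-like cells, SMA over Con (horizontal axis), for the 46 genes with at least 50 UMIs there (vertical axis, ordered by ratio), with 95% counting intervals; dotted lines mark 2-fold. Cfap221 and Cfap47 lie past 2-fold above, at 1.16 and 1.03, and Rsph14 is lowest at -0.83.

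By role, the summed log2 ratios of SMA over Con were -0.18 (-0.24 to -0.11) for the radial spokes and -0.15 (-0.22 to -0.09) for the Cfap genes of the doublets. They were 0.05 (-0.16 to 0.25) for the outer arm heavy chains, 0.01 (-0.14 to 0.16) for the inner arm heavy chains, 0.02 (-0.10 to 0.14) for the central apparatus (0.11, -0.03 to 0.24, without Cfap206) and 0.03 (-0.09 to 0.15) for the assembly factors. The inner arm heavy chains had 0.20 (0.01 to 0.40) within the Crygn cluster and -0.36 (-0.60 to -0.12) within the Pdyn cluster. They were 0.05 (-0.10 to 0.20) for the group of tether, calmodulin and spoke complex and modifiers, and -0.06 (-0.15 to 0.03) for the other Cfap genes. The spokes and the doublets thus had intervals below 0 over all ependymal-like cells, and those of the other roles included 0. Rsph1 gave most UMIs of the spokes, and Cfap126 and Cfap20 gave the most of the doublets.

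Other genes of motile cilia, which carry no member's prefix, were described from lists. Some lists are broader than their names. That of the central apparatus also holds Cep131 and Daw1, and that of the regulators also holds the tubulin Tubb4b. In SMA all 13 evaluated axonemal dyneins and docking factors, all 12 of the dynein regulatory complex and ruler, all 11 of the central apparatus and all 14 proteins of the doublet were 2-fold or more higher in ependymal-like cells. In Con it was all 13, 12, 10 and 13. These counts stand beside 14.9% of all genes in SMA and 16.3% in Con. The requirement on UMIs was the same as for the members. Many genes of these lists met it only through their UMIs in ependymal-like cells, so these counts describe the lists and support nothing further. Of the dynein preassembly factors, 9 of 11 in SMA and 8 of 10 in Con passed, of the intraflagellar transport genes 22 of 26 in both, and of the regulators of ciliated cells 7 of 9 in both. Transport genes had lower ratios, with medians of 2.25 and 2.52 on the log2 scale against 6.995 and 7.623 for the central apparatus. Ak7, a kinase of the central apparatus, had 151.1 and 151.1 CPM against 0.538 and 0.458 CPM, while Ift20, a transport protein, had 377 and 400 CPM against 90.5 and 99.5 CPM.

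Between the libraries these lists had medians from -0.19 (axonemal dyneins and docking) to -0.03 (regulators) in ependymal-like cells, and the 14 ependymal markers had 0.02, beside -0.05 over all genes. Of the 96 genes of the 7 lists with at least 50 UMIs there, 1 was 2-fold or more higher in SMA (0.577% of all genes). Intervals lay above 0 for 3 (6.39% of all genes) and below 0 for 17 (10.7%). The 3 were Rfx1, a regulator of ciliary genes, at 1.05 (0.32 to 1.85), Lrrc6, a dynein preassembly factor, at 0.73 (0.29 to 1.19), and Tctex1d2, a dynein light chain, at 0.20 (0.04 to 0.36). Among the 17 were Tubb4b, Drc3 and Ccdc114. Tubb4b, a tubulin of cilia, had 1314 CPM in SMA and 1751 CPM in Con, a log2 ratio of -0.41 (-0.48 to -0.35). Drc3, of the dynein regulatory complex, had 166 and 219 CPM (-0.41, -0.59 to -0.23), and Ccdc114, which docks outer arms, had 108 and 149 CPM (-0.47, -0.69 to -0.25). The spread between animals was not measured for any of these genes.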

How the data were processed

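Single-cell RNA-seq was done on 1 library per group. The deposited matrices hold raw UMI counts per gene and barcode, which the authors obtained from Cell Ranger (version 4.0.0 per the file headers, with mm10 per the labels) and left without normalization. Kept were barcodes with 200 to 4000 genes and under 10% mitochondrial UMIs, except for a cluster of 1338 Con barcodes with a median ribosomal share over 30%. Doublets were treated by the upper limit on genes alone. SMA barcodes also listed in Con were left out.

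For clustering, each cell was brought to 10000 counts on a log scale. Variable genes (2000, ranked per library, with members and companion lists excepted) were reduced to 30 principal components, and the graph of 20 neighbours was divided by the Louvain method (igraph 0.11.9, resolution 1, Python 3.11.15) without integration. Classes were named from fixed markers, and 94 and 102 cells stayed unnamed and are in no class. UMIs were summed by class and library as CPM. Sums have exact Poisson, shares exact Clopper-Pearson and ratios exact conditional binomial intervals, at 95%. A count of 0 was set to a floor of 3 counts per class and library. The ratio code was tested on simulated data. Since counts come from 3′ ends, CPM is not scaled to gene length.

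Total counts were 85872075 UMIs in SMA and 97894084 in Con over all barcodes. Named were the 16 members with most UMIs in ependymal-like cells, those under 2-fold in both libraries, the 5 highest and 5 lowest ratios between libraries, and up to 3 genes with most UMIs of each list. Other list genes (Foxj1, Ccdc153, Tppp3, Rfx1, Lrrc6 and any below the top 3 of a list) were chosen after their values were seen, and 1 result of a list gene is not reported here. Members shown for where else they were found, for their ratio between the ependymal-like clusters or to complete a role were chosen after the values were seen. The members and lists were chosen with earlier results of these data known. Alternatives were other limits, resolutions, gene exclusions, weights, centring, UMI minimums and thinning. Positions are from GENCODE M21 on GRCm38, whose identifiers matched 32158 of 32285 genes.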

Additional observations from a re-analysis of the deposited data

Results flagged for a closer look

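The members' summed level was lower in SMA than in Con in ependymal-like cells, with a log2 ratio of -0.09, and higher in 6 other classes with intervals above 0, among those that held 50 cells or more per library. The log2 ratios there were 0.11 in astrocyte-like, 0.15 in OPC-like, 0.23 in COP-like (committed oligodendrocyte precursors), 0.23 in microglia-like, 0.19 in endothelial-like and 0.71 in fibroblast-like cells. Of the classes under 50 cells in a library, macrophage-like cells (38 and 64 cells) were lower, with 107 CPM (76.2 to 146) in SMA and 195 CPM (162 to 232) in Con, a log2 ratio of -0.86 (-1.42 to -0.34). With 1 library per group the difference between classes was not tested. Fibroblast-like cells were spread unequally over their clusters, with 2 cells of SMA and 431 of Con in a cluster led by Mfap5, and within the cluster led by Slc6a13 (61 and 168 cells) the log2 ratio was 0.33 (0.10 to 0.55). Without the 6 broad members the log2 ratio was 0.02 (-0.15 to 0.20) in astrocyte-like and 0.21 (-0.0035 to 0.43) in microglia-like cells, with intervals that include 0. It was 0.29 (0.12 to 0.46) in OPC-like, 0.55 (0.13 to 0.95) in COP-like, 0.42 (0.03 to 0.82) in endothelial-like and 1.29 (0.80 to 1.78) in fibroblast-like cells, and 0.95 (0.42 to 1.48) within the Slc6a13 cluster.

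Barcodes outside the comparisons also held member UMIs. Without the broad members, barcodes with over 4000 genes had 174 CPM in SMA and 82.9 CPM in Con, a log2 ratio of 1.07. Barcodes with a mitochondrial share of 10% or more had 256 and 168 CPM, a log2 ratio of 0.61. At least 20 member UMIs were found in 48 and 35 barcodes of the former set and in 77 and 56 of the latter. By the same measure without the broad members, the kept cells of all classes together had 388 CPM in SMA and 171 CPM in Con. Of those kept cells, 9.18% in SMA and 3.22% in Con were ependymal-like, so the gap was not particular to the barcodes left out.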

How the results depend on the processing

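No paired analysis was possible because each group is 1 library. Of 125 alternative values of the comparisons 28 moved beyond the counting interval or by over 1.5 times, and 0 changed direction with an interval that left out 0; of 480 values of named genes 23 moved and 0 reversed. The log2 ratio of ependymal-like over other cells in SMA was 3.90 with the shared SMA barcodes kept, 3.79 with up to 6000 genes, 3.83 with cells weighted equally and 6.26 without the broad members. In Con it was 4.22 with a mitochondrial limit of 20%, 4.14 with up to 6000 genes, 4.25 with equal weights, 6.77 without the broad members and 4.41 with shared barcodes left out of both libraries. That last setting, chosen after seeing the data, left 30 ependymal-like cells of Con, so 7 of 8 members evaluated were 2-fold higher there (26.1% of all genes). Of 41 members, 1 (Dnah2) was 2-fold or more higher in SMA than in Con (8.02% of all genes) and 3 (Cfap70, Cfap100 and Cfap157) were lower (9.53%), with a summed log2 ratio of -0.14, and shares of 100% in both libraries.

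Between the libraries the summed log2 ratio was -0.015 with up to 6000 genes, -0.044 when centred on the median gene and -0.19 in the Pdyn cluster alone. The count of 2 members 2-fold or more higher became 1 with shared SMA barcodes kept, with a mitochondrial limit of 20% and with up to 6000 genes, and 0 with cells of at least 4000 UMIs and with a minimum of 100 UMIs. The share of ependymal-like cells with a member UMI was 100% in Con with cells of at least 4000 UMIs; in SMA it was 99.8% with up to 6000 genes, 100% without thinning, 97.6% at 1000 UMIs and 98.1% without the broad members. The cause was not tested. The without-broad and single-cluster settings were also chosen after seeing the data. Depth limits members with few UMIs, such as Cfap221 and Cfap47.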
